A study of Sus scrofa with 2 samples.

Results

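The HSP90 chaperones of pig skeletal muscle and 5 genes that work with them or resemble them were described in 2 messenger RNA libraries. The 7 genes were HSP90AA1, HSP90AB1, STIP1, PTGES3, FKBP4, CACYBP and TRAP1. They were picked by gene identity, with earlier results of these libraries in view, out of 27987 entries of the deposited table. All 7 were found, each on 1 entry, and all 7 had a mean above 1 RPKM (reads scaled to gene length and library size). The H30 library came from the arm kept at a constant 30 °C for 21 days and the CON library from the arm kept at a constant 22 °C for the same time. Both arms held castrated male DLY pigs, a cross of Duroc boars with Yorkshire-Landrace sows, with 8 pigs per arm and 16 pigs of 79.0 ± 1.5 kg from 8 litters in all. The muscle was longissimus dorsi, which runs along the back. Each arm is represented by 1 library, and the sources used here do not say whether RNA of several pigs was combined in it. No difference below therefore has a replicate check, and heat exposure cannot be told apart from differences between the pigs sampled or between library preparations.

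HSP90 is an abundant chaperone that works as a dimer and uses ATP to finish the folding of clients such as steroid hormone receptors and protein kinases. It receives many clients from HSP70 through an adaptor, and co-chaperones then set the pace of its ATP cycle and direct it to particular clients. In striated muscle it also takes part in the folding of myosin. The cytosol has an inducible form, encoded by HSP90AA1, and a more constant form, encoded by HSP90AB1. A separate gene, TRAP1, encodes a relative that works inside mitochondria.

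The H30 library held 22863584 reads and the CON library 23608242 reads, as recovered from the RPKM values. The labelled tissue was in keeping with its markers, since the 8 matched skeletal muscle genes summed to 153530 RPKM in the H30 library and 159693 RPKM in the CON library, led by the actin gene ACTA1. Other cell types were far lower. Summed markers in the H30 library were 881 RPKM for 8 fibroblast genes, 143 for 4 endothelial genes, 113 for 3 red blood cell genes, 105 for 4 smooth muscle and pericyte genes, 32.1 for 6 macrophage genes, 11.2 for 3 adipocyte genes and 4.89 for 7 lymphocyte genes. In the CON library they were 975 RPKM for fibroblast, 127 for endothelial, 89.5 for red blood cell, 94.0 for smooth muscle and pericyte, 30.0 for macrophage, 18.6 for adipocyte and 4.75 for lymphocyte genes. The sums rest on few genes, and markers of most lists did not move as one. Of those with a mean of at least 1 RPKM, 3 fibroblast genes were higher in the H30 library and 5 lower, 2 endothelial higher and 2 lower, 2 smooth muscle and pericyte higher and 2 lower, 2 macrophage higher and 4 lower, 1 adipocyte higher and 2 lower, 1 lymphocyte higher and 2 lower, and the 1 red blood cell gene was higher. No matched marker was listed at 0 in both libraries. In bulk muscle, fewer cells of a type and less RNA per cell cannot be told apart, and the part of these cell types in the results below was not tested.

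Both cytosolic HSP90 genes and their 4 cytosolic partners were higher in the H30 library, and the mitochondrial TRAP1 was lower. By RPKM ratio the chaperones themselves differed most, and the partners were 13% to 26% higher. The intervals for counting error given below overlapped between HSP90AA1 and both STIP1 and PTGES3. On the scale log2((H30 RPKM + 1)/(CON RPKM + 1)), 6 of the 7 genes were above 0 and 1 was below, with a median of 0.29. The median of all 13191 genes with a mean of at least 1 RPKM was 0.05, and 58.8% of those genes were above 0 and 41.2% below. A 1.2-fold difference, 0.26 on the log2 scale, was passed by 4 of the 7 in the higher direction and by 1 in the lower direction, where 17.5% of all genes passed it in the higher direction and 10.5% in the lower. Among 2671 genes with a mean of 15 to 250 RPKM, a range set about the levels of the 7 after they were seen, 8.99% passed it in the higher direction and 7.0% in the lower. None of the 7 was 1.5-fold apart, against 3.44% of all genes that were 1.5-fold higher and 2.37% that were 1.5-fold lower. Since these same differences were known when the 7 genes were chosen, the counts are a description and carry no test.

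**Figure D1:**
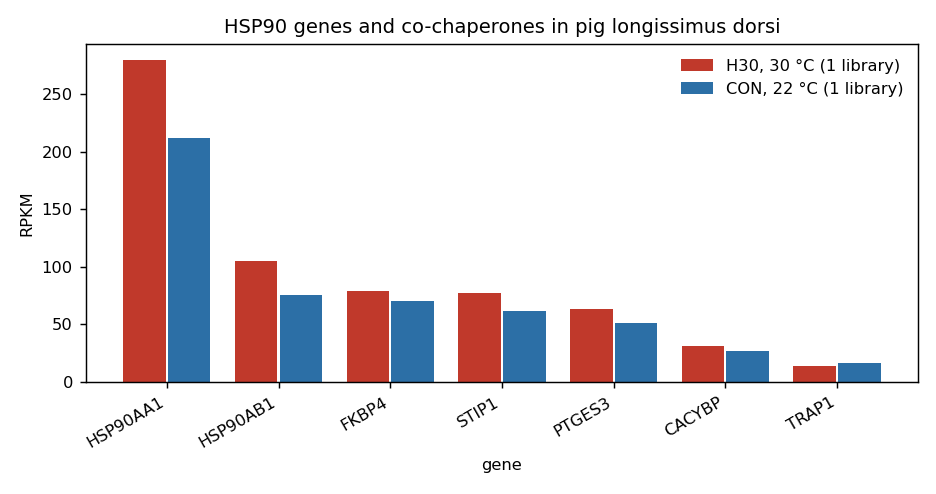
RPKM (vertical axis, linear, from 0) of the 7 genes in the H30 library (red, left bar of each pair) and the CON library (blue, right bar), ordered by mean level, 1 library per bar and so without error bars. The red bar is the taller for every gene but TRAP1, and HSP90AA1, at 279.5 RPKM in H30 and 212 in CON, stands above the others.

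HSP90AA1 (ENSSSCG00000002535), the stress-inducible cytosolic form, had 279.5 RPKM in the H30 library and 212 RPKM in the CON library. The RPKM ratio was 1.32, with a 95% counting interval of 1.26 to 1.38 from at least 3975 H30 and 3111 CON reads, and the log2 ratio was 0.40. Read numbers are the fewest that fit the values, here and for the genes that follow. Only 1.88% of all genes had a higher mean level over both libraries. By difference, 8.47% of all genes had a log2 ratio at least as high.

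HSP90AB1 (ENSSSCG00000001701), the more constant cytosolic form, had 105 RPKM in the H30 library and 75.8 RPKM in the CON library. Its ratio of 1.39 (95% counting interval 1.36 to 1.42, from 16060 H30 and 11933 CON reads) was the highest of the 7, and its log2 ratio was 0.47. In all, 5.90% of genes had a log2 ratio at least as high. The ratio of the form usually described as constant was above that of the inducible one, with counting intervals that overlapped.

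HSP90AA1 made up 72.6% of the summed RPKM of both cytosolic genes in the H30 library and 73.6% in the CON library, a share that no rescaling of the libraries can move. The order of the pair rests on the gene lengths used by the authors. The values fit a length of 6664 bp or a multiple for HSP90AB1, and of 622 bp or a multiple for HSP90AA1. In the H30 library these lengths go with at least 16060 reads for HSP90AB1 and at least 3975 for HSP90AA1. Both are minimums, so which of the pair held more reads is not settled. The sources used here do not say how reads that match both genes were assigned. The split between the 2 genes is therefore uncertain, and so are their H30 over CON ratios, their share and their sum. The sum was 385 RPKM in the H30 library and 288 RPKM in the CON library.

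STIP1 (ENSSSCG00000021620), the adaptor that holds HSP70 and HSP90 together while a client is passed on, had 76.97 RPKM in the H30 library and 61.3 RPKM in the CON library. Its ratio was 1.26 (1.199 to 1.32, from 4016 H30 and 3301 CON reads) and its log2 ratio 0.32. PTGES3 (ENSSSCG00000000406), the co-chaperone p23, which steadies the closed ATP-bound form of HSP90 and is also described as a prostaglandin E synthase, had 63.2 RPKM in the H30 library and 51.5 RPKM in the CON library. Its ratio was 1.23 (1.16 to 1.2999, from 2595 H30 and 2183 CON reads) and its log2 ratio 0.29. These 2 partners, which act early and late in the client cycle, passed 1.2-fold, and their counting intervals overlapped each other and that of HSP90AA1. PTGES3 fell short of 1.2-fold when centred on the median of all genes (0.24) or with trimmed mean rescaling (0.23), while STIP1 still passed (0.27 and 0.265).

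FKBP4 (ENSSSCG00000000743), the immunophilin FKBP52, which helps steroid receptors to bind hormone and move to the nucleus, had 79.2 RPKM in the H30 library and 70.3 RPKM in the CON library. Its ratio was 1.13 (1.08 to 1.17, from 5004 H30 and 4587 CON reads) and its log2 ratio 0.17, with 28.9% of all genes at least as high. CACYBP (ENSSSCG00000015504), a protein that binds the calcium sensor S100A6 and the ubiquitin ligase SIAH1 and is related in part of its fold to the co-chaperone SGT1, had 31.1 RPKM in the H30 library and 27.2 RPKM in the CON library. Its ratio was 1.14 (1.06 to 1.23, from 1484 H30 and 1340 CON reads) and its log2 ratio 0.19, with 26.3% of all genes at least as high. Both stayed under 1.2-fold and lay in a part of the ranking that many genes share.

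TRAP1 (ENSSSCG00000007952), the mitochondrial relative of HSP90, was the least abundant of the 7 and the only one that was lower, with 13.7 RPKM in the H30 library and 16.8 RPKM in the CON library. Its ratio was 0.814 (0.737 to 0.900, from 705 H30 and 894 CON reads) and its log2 ratio -0.28, with 9.67% of all genes at least as low. It passed 1.2-fold narrowly, and no longer did so with a pseudocount of 5 (log2 ratio -0.22) or with rescaling without the 10 highest genes (-0.24).

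**Figure D2:**
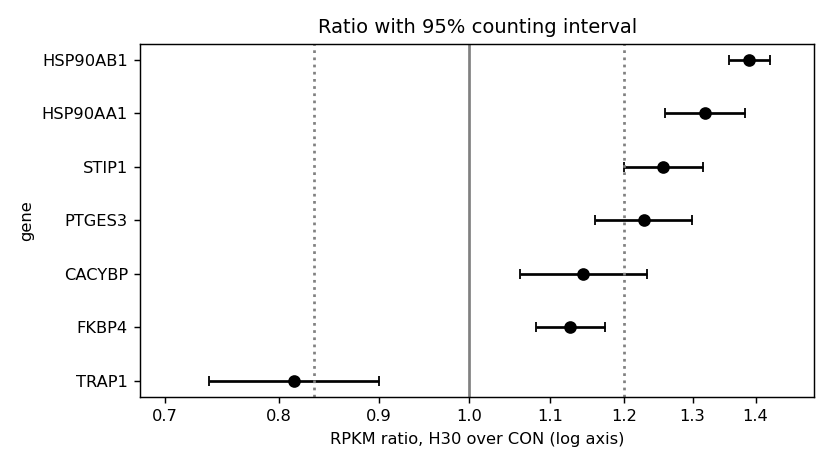
RPKM ratio of the H30 over the CON library (horizontal log axis) for each gene, ordered from high to low. Bars are 95% Clopper-Pearson counting intervals, the solid line marks no difference and the dotted lines mark 1.2-fold; HSP90AB1 (1.39) and HSP90AA1 (1.32) lie beyond the right dotted line with their whole intervals, and TRAP1 (0.814) lies left of the solid line.

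The counting interval lay above 1 for 6 genes and below 1 for TRAP1. At this depth counting error is small for abundant genes, and the interval lay above 1 for 20.4% and below 1 for 10.4% of the 13098 genes whose reads were recovered. Among the 2664 of these with a mean of 15 to 250 RPKM the shares were 28.1% and 18.7%. In order of ratio the genes ran HSP90AB1, HSP90AA1, STIP1, PTGES3, CACYBP, FKBP4 and TRAP1, and the intervals of neighbours overlapped at every step but the last. Over all 21 pairs, the intervals of 8 overlapped and those of 13 did not. HSP90AB1 stood apart from every gene but HSP90AA1, and TRAP1 from all the others. These intervals cover the counting of reads in these 2 libraries and say nothing of the spread between pigs. Nor do they cover how reads that match both cytosolic HSP90 genes were assigned.

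Set against the summed RPKM of both cytosolic HSP90 genes, each other gene had a smaller share in the H30 library. No counting interval was made for these shares. The intervals of the single ratios of STIP1 and PTGES3 overlapped that of HSP90AA1 but not that of HSP90AB1. FKBP4 stood at 20.6% of summed cytosolic HSP90 RPKM in the H30 library and 24.4% in the CON library. The share of STIP1 was 19.997% in H30 and 21.3% in CON, and that of PTGES3 was 16.4% in H30 and 17.9% in CON. The share of CACYBP was 8.07% in H30 and 9.44% in CON, and that of TRAP1, which sits in another compartment, was 3.55% in H30 and 5.83% in CON. In proportion to the CON share, the difference was smallest for STIP1, next for PTGES3 and largest for TRAP1, the order that the single ratios above already give. Together the 7 genes took 0.0929% of the summed RPKM of all entries in the H30 library and 0.0719% in the CON library.

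**Figure D3:**
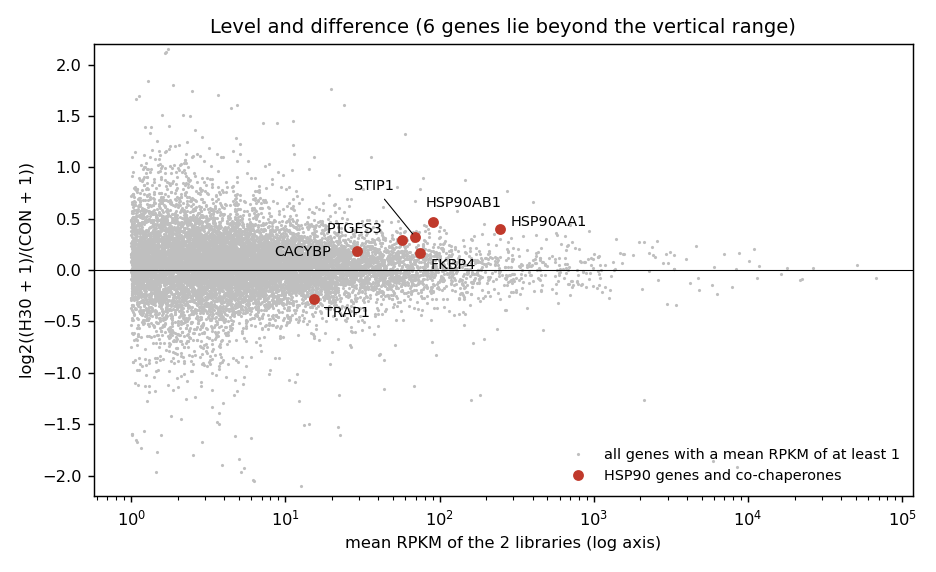
Mean RPKM of both libraries (horizontal log axis) against log2((H30 RPKM + 1)/(CON RPKM + 1)) for the 13191 genes with a mean of at least 1 RPKM (grey) and the 7 genes (red, named); 6 genes lie beyond the vertical range. The grey cloud narrows towards high levels, and HSP90AA1 and HSP90AB1 lie near its upper edge while FKBP4 and CACYBP lie inside it.

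A wider list of HSP90 co-chaperones and chaperone partners, without the 7, was balanced between the libraries. Of 38 listed genes 28 were matched and 27 measured at a mean of at least 1 RPKM. Of these, 14 were above 0 and 13 below, with a median log2 ratio of 0.02 beside 0.05 for all genes. At 1.2-fold 3 were higher and 0 lower, where 17.5% of all genes were higher and 10.5% lower. The sign of this median turned under 4 of the alternative settings, and when centred on the median of all genes 11 were above 0 and 16 below, with 3 higher and 1 lower at 1.2-fold. The highest members were FKBP5, an immunophilin that restrains the glucocorticoid receptor on HSP90 (21.2 RPKM in the H30 library and 9.33 RPKM in the CON library, log2 ratio 1.10), and NUDCD1 (3.305 RPKM in H30 and 2.10 in CON, 0.47). The lowest were TOMM70, a receptor on the outer mitochondrial membrane that accepts preproteins from HSP70 and HSP90 (7.71 RPKM in the H30 library and 8.90 RPKM in the CON library, -0.18), and CNPY3, which assists the HSP90 of the endoplasmic reticulum with Toll-like receptors (6.51 RPKM in H30 and 8.00 in CON, -0.26). The RPKM ratio of FKBP4 to FKBP5, paralogues that compete for HSP90 in steroid receptor complexes, was 3.74 in the H30 library and 7.53 in the CON library.

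Some members of that list are named here for their roles, a choice made with their values in view. ST13, which binds HSP70 early in the handover of clients, was the third member past 1.2-fold, at 187 RPKM in the H30 library and 149 RPKM in the CON library (log2 ratio 0.33). The kinase-specific co-chaperone CDC37 had 81.9 RPKM in the H30 library and 84.1 RPKM in the CON library (-0.04). The muscle myosin chaperone UNC45B, which works with HSP90, had 105 RPKM in H30 and 98.9 in CON (0.08), and SMYD1, a muscle methyltransferase tied to the same path, had 119.8 RPKM in H30 and 123 in CON (-0.04). The ubiquitin ligase STUB1, which marks clients that fail to fold, had 110 RPKM in H30 and 109 in CON (0.02). HSP90B1, the HSP90 of the endoplasmic reticulum, had 31.8 RPKM in H30 and 27.5 in CON (0.20). AHSA1, the activator of the HSP90 ATPase, was listed at only 0.0633 RPKM in H30 and 0.153 in CON and was not compared.

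The clients and regulators listed for HSP90 showed a similar balance. Of 36 listed genes 28 were matched and 25 measured, with 13 above 0 and 12 below, a median log2 ratio of 0.01, and 1 gene higher and 0 lower at 1.2-fold, where 17.5% of all genes were higher and 10.5% lower. When centred on the median of all genes, 9 were above 0 and 16 below, with a median of -0.04. Rescaling changed these calls to 0 higher and 2 lower when centred or with trimmed mean rescaling, and to 3 higher and 0 lower without the 10 highest genes. The insulin receptor INSR (4.37 RPKM in the H30 library and 3.33 RPKM in the CON library, log2 ratio 0.31) and the endothelial nitric oxide synthase NOS3 (4.21 RPKM in H30 and 3.38 in CON, 0.25) were the highest. The autophagy kinase ULK1 (25.03 RPKM in the H30 library and 29.2 RPKM in the CON library, -0.21) and the kinase MAP2K5 (4.69 RPKM in H30 and 5.61 in CON, -0.22) were the lowest. The messenger of HSF1, the factor that drives heat shock genes and that HSP90 holds inactive, stood at 38.3 RPKM in the H30 library and 38.1 RPKM in the CON library (0.01). That of the glucocorticoid receptor NR3C1 stood at 16.5 RPKM in H30 and 15.96 in CON (0.05). Both were named after their values were seen.

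The HSP70 side delivers clients to HSP90 through STIP1. Of 24 listed cytosolic HSP70, HSP40 and HSP110 genes and their helpers 17 were matched and 16 measured, with 11 above 0 and 5 below and a median log2 ratio of 0.11. At 1.2-fold 3 were higher and 1 lower, shares near the 17.5% and 10.5% of all genes, and 58.8% of all genes were above 0. When centred on the median of all genes, 9 were above 0 and 7 below, and 1 was higher and 1 lower at 1.2-fold. Without the 10 highest genes, 5 were higher and 1 lower. ST13 and the HSP40 gene DNAJA1 (37.7 RPKM in the H30 library and 30.9 RPKM in the CON library, log2 ratio 0.28) were the highest. The third gene past 1.2-fold was HSPH1, an HSP110 exchange factor of HSP70, named after its value was seen (15.4 RPKM in H30 and 12.6 in CON, 0.27). The HSP40 genes DNAJB5 (24.5 RPKM in H30 and 26.95 in CON, -0.13) and DNAJB1 (26.4 RPKM in the H30 library and 34.3 RPKM in the CON library, -0.36) were the lowest. DNAJB1 is a classical heat-inducible gene and lay opposite to HSP90AA1. HSPA8, the constant HSP70, named after its value was seen, had 86.5 RPKM in H30 and 78.5 in CON (0.14). The HSP70 genes HSPA1A, HSPA1B, HSPA1L and HSPA2 had no entry under these symbols and were not compared. The list therefore says nothing of them.

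Of the 16 genes listed for the CCT chaperonin and prefoldin, which fold actin and tubulin, 11 were matched and 10 measured. Of these, 8 were above 0 and 2 below, as deposited and under all 3 rescalings, with a median log2 ratio of 0.12 as deposited. Among all genes 58.8% were above 0 as deposited. At 1.2-fold 1 was higher and 0 lower as deposited, where 17.5% of all genes were higher and 10.5% lower. When centred on the median of all genes or with trimmed mean rescaling, 0 were higher and 1 was lower. CCT4, a ring subunit of the chaperonin (63.2 RPKM in the H30 library and 51.2 RPKM in the CON library, log2 ratio 0.30), and PDRG1, a prefoldin-like protein (14.9 RPKM in H30 and 12.7 in CON, 0.22), were the highest. The prefoldin subunits PFDN4 (16.5 RPKM in H30 and 17.4 in CON, -0.07) and PFDN5 (8.49 RPKM in H30 and 10.22 in CON, -0.24) were the lowest. Their counting intervals of the ratio both held 1 (0.845 to 1.07 for PFDN4 and 0.509 to 1.35 for PFDN5).

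The other mitochondrial chaperones and proteases share the compartment of TRAP1. Of 19 listed genes 12 were matched and 11 measured, with 8 above 0 and 3 below and a median log2 ratio of 0.08. Among all genes 58.8% were above 0. At 1.2-fold 0 were higher and 0 lower, where 17.5% of all genes were higher and 10.5% lower. When centred on the median of all genes, 7 were above 0 and 4 below, and without the 10 highest genes 1 was at least 1.2-fold higher. GRPEL2, an exchange factor of mitochondrial HSP70 (9.63 RPKM in the H30 library and 7.92 RPKM in the CON library, log2 ratio 0.25), and PPIF, the cyclophilin of the permeability transition pore and a described partner of TRAP1 (8.88 RPKM in H30 and 7.89 in CON, 0.15), were the highest. The inner membrane proteases OMA1 (5.14 RPKM in H30 and 5.69 in CON, -0.12) and SPG7 (19.6 RPKM in H30 and 22.7 in CON, -0.20) were the lowest. The matrix chaperonin pair, HSPD1 and HSPE1, was named after their values were seen. HSPD1 had 54.5 RPKM in H30 and 50.4 in CON (0.11), and HSPE1 had 384 RPKM in H30 and 375 in CON (0.03). TRAP1, at -0.28 and chosen with its value known, lay below all 11. Its counting interval of the ratio (0.737 to 0.900) overlapped those of SPG7 (0.771 to 0.965) and OMA1 (0.557 to 1.46).

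**Figure D4:**
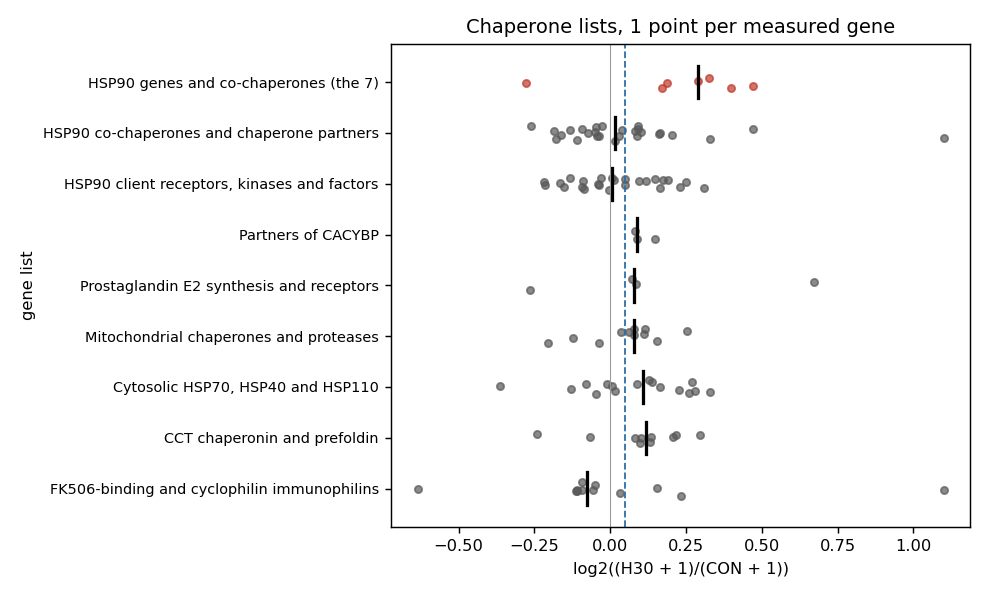
Values of log2((H30 RPKM + 1)/(CON RPKM + 1)) (horizontal axis) for the 7 genes (red) and for the measured members of 8 related lists (grey), 1 point per gene with vertical jitter. Short black lines are list medians and the dashed line is the median of all genes (0.05); the 7 have a median of 0.29, in part because they were chosen with these values known, while the wider co-chaperone list has 0.02.

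FK506-binding proteins and cyclophilins, the immunophilin family to which FKBP4 belongs, were split about 0. Of 23 listed genes 12 were matched and measured, with 4 above 0 and 8 below and a median log2 ratio of -0.08, which was below 0 under all 3 rescalings too. At 1.2-fold 1 was higher, FKBP5, and 1 lower, FKBP10, where 17.5% of all genes were higher and 10.5% lower. Without the 10 highest genes 2 were higher and 1 lower. PPIL2, a cyclophilin of the nucleus (9.45 RPKM in the H30 library and 7.88 RPKM in the CON library, log2 ratio 0.23), came after FKBP5. The lowest were FKBP9 (9.49 RPKM in H30 and 10.3 in CON, -0.11) and FKBP10, a collagen chaperone of the endoplasmic reticulum (2.99 RPKM in H30 and 5.19 in CON, -0.63). Of fibroblast markers 5 of 8 were below 0 in the same comparison, with a median of -0.14, and their part in the value of FKBP10 was not tested. FKBP4 was at 0.17, above 0 as were 58.8% of all genes, where 8 of these 12 were below.

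For the second role of PTGES3, the synthesis and handling of prostaglandin E2, 10 of 11 listed genes were matched and only 4 measured. HPGD, the enzyme that inactivates prostaglandins, had 2.78 RPKM in the H30 library and 1.37 RPKM in the CON library (log2 ratio 0.67), the transporter SLCO2A1 had 1.99 RPKM in H30 and 1.82 in CON (0.09), and the cyclooxygenase PTGS1 had 1.52 RPKM in H30 and 1.39 in CON (0.07). PTGES2, a membrane prostaglandin E synthase, had 13.9 RPKM in the H30 library and 16.9 RPKM in the CON library (-0.26, just past 1.2-fold), opposite to PTGES3, with a counting interval of the ratio that held 1 (0.673 to 1.01). The median of the 4 was 0.08. Of 10 listed partners of CACYBP only 3 were matched, too few to set against the 58.8% of all genes above 0. The calcium sensors S100A4 (2.58 RPKM in the H30 library and 2.23 RPKM in the CON library, log2 ratio 0.15) and S100A1 (72.9 RPKM in H30 and 68.4 in CON, 0.09) and the adhesion and signalling protein CTNNB1 (44.3 RPKM in H30 and 41.8 in CON, 0.08) were all above 0 and under 1.2-fold, with a median of 0.09.

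The genes with a symbol nearest to each cytosolic HSP90 gene in the plane of both log2(RPKM + 1) levels, over the 2 libraries, were found by Euclidean distance. For HSP90AA1 they were the autophagy receptor SQSTM1 (250.3 RPKM in the H30 library and 211 RPKM in the CON library, distance 0.16), the muscle Z disc protein NEXN (246 RPKM in H30 and 227 in CON, 0.21) and the elongation factor subunit EEF1D (246 RPKM in H30 and 230.3 in CON, 0.22). For HSP90AB1 they were ATP1B4 (99.6 RPKM in the H30 library and 71.4 RPKM in the CON library, 0.12), JPT1 (96.5 RPKM in H30 and 74.8 in CON, 0.13) and the translation repressor EIF4EBP1 (96.2 RPKM in H30 and 84.4 in CON, 0.20). With 2 libraries, nearness says only that level and difference were close.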

How the data were processed

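Messenger RNA of longissimus dorsi was measured in 1 library per arm, with poly(A) selection, random priming, 3 µg of RNA, 10 PCR cycles and fragments of about 200 bp, per the labels' protocols. The authors deposited RPKM values. Bowtie, TopHat 1.4.0, Cufflinks 1.3.0 and Sscrofa10.2 are named with no role, per the submitters' processing notes. Counting, gene lengths and strand are not given in the sources used here.

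Symbols came from a table of pig gene names, which matched 11374 of 27987 entries. Members and lists were chosen with earlier results of these data known. The lists name their 2 highest and 2 lowest members, and the 3 genes nearest to each cytosolic HSP90 gene are named too. With 1 library per group no test was made. Differences are log2((H30 RPKM + 1)/(CON RPKM + 1)), which understates low genes, over genes with a mean of at least 1 RPKM. Python 3.11.15, NumPy 2.4.6, pandas 2.3.3 and SciPy 1.17.1 were used.

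A gene's H30 over CON RPKM ratio equals a quotient of whole reads multiplied by 1.03257, the CON over H30 quotient of library totals. The CON total was the largest whole number giving whole gene lengths (83.0% of 1750 genes scanned, within 2e-05 bp). Reads per gene are the fewest that fit, and using too few reads widens the 95% Clopper-Pearson intervals. The intervals take every read as independent and cover counting error only. Reads copied in PCR are not independent molecules, so for that reason the intervals can be too narrow. A read on 1 kb was worth 0.0437 RPKM in the H30 library and 0.0424 RPKM in the CON library. The steps were tested on simulated reads.

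Alternatives were pseudocounts of 0.1 and 5, other filters, 3 rescalings, genes with a symbol only, a 1.5-fold threshold and list means.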

Additional observations from a re-analysis of the deposited data

How the results depend on the processing

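No paired analysis was possible because each arm has 1 library, and for the same reason no library could be left out. All 7 genes kept their direction under every alternative run. Log2 ratios ranged from 0.41 to 0.51 for HSP90AB1, 0.34 to 0.44 for HSP90AA1, 0.26 to 0.37 for STIP1, 0.23 to 0.33 for PTGES3, 0.11 to 0.21 for FKBP4, 0.13 to 0.23 for CACYBP and -0.33 to -0.22 for TRAP1. Beyond its counting error, HSP90AB1 moved to 0.42 when centred on the median of all genes, 0.41 with trimmed mean rescaling and 0.51 when rescaled without the 10 highest genes, and FKBP4 to 0.11 with trimmed mean rescaling. Of the 7 genes, the 4 at least 1.2-fold higher became 3 when centred or with trimmed mean rescaling, and 0 at 1.5-fold. The 1 lower became 0 at 1.5-fold, with a pseudocount of 5 and without the 10 highest genes. The 2312 higher and 1382 lower genes of the whole table numbered 749 and 517 on a pseudocount of 5, 3757 and 2158 with no filter, 734 and 509 at a mean of at least 5 RPKM, 858 and 467 with a symbol, 454 and 313 at 1.5-fold, and 240 and 187 at 15 to 250 RPKM, the last chosen after seeing the data. The median of the wider co-chaperone list (0.02) turned to -0.0054 with no filter and at a mean of at least 5 RPKM, -0.034 when centred and -0.044 with trimmed mean rescaling. The filters and the higher threshold change how many genes are counted. Centring takes the median of all genes (0.05) off every log2 ratio. The other 2 rescalings divide every H30 value by 1 constant, and a pseudocount of 5 draws log2 ratios towards 0. Why the 2 libraries differ in scale was not tested. Depth limits low genes such as NUDCD1 and HPGD most. For some genes named as the highest or lowest of a list the counting interval of the ratio held 1. Examples are TOMM70 (0.652 to 1.15), MAP2K5 (0.574 to 1.21), GRPEL2 (0.989 to 1.495) and S100A4 (0.650 to 2.07). For others, such as FKBP5, it did not.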
